A study of Mus musculus with 2 samples.

Results

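The microRNA genes described here lie at the proximal end of the imprinted Dlk1-Dio3 domain on mouse chromosome 12, in and near the transcript that runs antisense to the retrotransposon-derived gene Rtl1. They were chosen by gene name: Mir493, Mir337, Mir540, Mir665, Mir431, Mir433, Mir127, Mir434, Mir136 and Mir370. Of these 10 names, 9 matched an identifier among the 1973 microRNA genes of the count tables, and Mir136 did not. The RNA came from the forebrain of healthy B6NCrl mouse embryos at embryonic day 13.5, males and females pooled, and small RNA was sequenced. There was 1 group with 2 libraries, which the labels number as biological replicates 1 and 2 and whose biosamples are separate while the donor identifier is the same. Only RNA under 30 nucleotides had been taken into them. No treatment, genotype or other stage was compared, and the spread between the libraries may in part be technical.

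In the Dlk1-Dio3 domain the protein-coding genes Dlk1, Rtl1 and Dio3 are expressed from the paternal chromosome, and the long non-coding RNAs Meg3, anti-Rtl1, Rian and Mirg from the maternal one. MicroRNAs and small nucleolar RNAs are cut from those maternal transcripts. MicroRNAs made from anti-Rtl1 are exactly complementary to the Rtl1 mRNA, and in the mouse they are known to direct its cleavage, a rare mode of action for animal microRNAs. The counts carry no allelic information and do not separate the 2 arms of a hairpin, so a level below is that of a whole microRNA gene.

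The position and sequence of the genes define the group. The measured members span 38.1 kb of the plus strand of chromosome 12 (109580233 to 109618336, GRCm38, also called mm10). Mir493 (109580233 to 109580315), Mir337 (109585789 to 109585885), Mir540 (109586080 to 109586146) and Mir665 (109586314 to 109586407) lie between Meg3 and Rtl1, outside annotated genes other than microRNA genes. Mir431 (109590447 to 109590537), Mir433 (109591715 to 109591838), Mir127 (109592846 to 109592915) and Mir434 (109594506 to 109594599) lie whole within the coding sequence of Rtl1, on the strand opposite to it. Mir136 (109595327 to 109595388) lies there too. Mir370 (109618258 to 109618336) lies in an intron of Rian, on the strand of Rian.

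The mature sequences of the 5 hairpins antisense to Rtl1 are shown because their match to Rtl1 sets them apart from the other members. They are given 5′ to 3′ as RefSeq lists them on GRCm38.p6, with the seed, bases 2 to 8, in capitals.
mmu-miR-431-5p: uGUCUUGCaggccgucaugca
mmu-miR-431-3p: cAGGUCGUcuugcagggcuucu
mmu-miR-433-5p: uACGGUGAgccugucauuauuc
mmu-miR-433-3p: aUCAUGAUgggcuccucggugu
mmu-miR-127-5p: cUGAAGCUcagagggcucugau
mmu-miR-127-3p: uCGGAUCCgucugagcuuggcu
mmu-miR-434-5p: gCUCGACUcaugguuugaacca
mmu-miR-434-3p: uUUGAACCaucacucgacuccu
mmu-miR-136-5p: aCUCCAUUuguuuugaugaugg
mmu-miR-136-3p: aUCAUCGUcucaaaugagucuu

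Each of these 10 mature microRNAs had exactly 1 full-length complementary site in the annotated Rtl1 transcript of 6358 bases, and all 10 sites were in its coding part (bases 148 to 5379). The site of mmu-miR-434-5p began at base 1002 of that transcript and the site of mmu-miR-433-3p at base 3749. The site of mmu-miR-127-3p began at base 2642. It is printed as the Rtl1 transcript reads, in DNA letters and with all matching bases in capitals, beside the hairpin of Mir127 (plus strand, both arms in capitals), because Mir127 had the most reads of the group.
Rtl1 site of mmu-miR-127-3p: AGCCAAGCTCAGACGGATCCGA
Mir127 hairpin: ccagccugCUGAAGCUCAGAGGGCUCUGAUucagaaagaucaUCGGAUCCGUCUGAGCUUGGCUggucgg
The other 10 mature microRNAs of the group, from Mir493, Mir337, Mir540, Mir665 and Mir370, had no exact site in the Rtl1 transcript. This follows from where the genes lie and is not a measurement of cleavage.

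The members do not form a seed family. Their 20 mature sequences, of 19 to 26 nucleotides, had 20 different seeds. Of these, 18 were found in none of the 1718 other mouse mature entries of the RefSeq table. The seed of mmu-miR-540-3p recurred in mmu-miR-6915-5p, whose gene was not matched to the tables. The seed of mmu-miR-370-5p recurred in mmu-miR-1193-3p, made from Mir1193 in the distal part of the same domain. That pair is shown because it is the only seed of the group found in another gene with a measured level, with the seed in capitals.
mmu-miR-370-5p: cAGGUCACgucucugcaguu
mmu-miR-1193-3p: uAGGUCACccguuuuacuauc
Mir370 had 608 CPM in replicate 2 and 824 CPM in replicate 1, and Mir1193 had 1080 and 1490 CPM in the same libraries. Mir1193 was thus higher than Mir370 in both libraries. CPM are counts relative to 1000000 counts on microRNA genes. They were not divided by hairpin length, since the RNA sequenced was under 30 nucleotides.

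In Mir431 and Mir434 the 5p and 3p arms carry the same stretch of bases, shown here in capitals.
Mir431 5p arm: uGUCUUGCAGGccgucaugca
Mir431 3p arm: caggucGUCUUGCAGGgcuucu
Mir434 5p arm: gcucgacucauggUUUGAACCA
Mir434 3p arm: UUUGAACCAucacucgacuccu
The stretch was 10 bases long in Mir431 and 9 in Mir434, and 3 to 6 in the other 8 hairpins of the group. Of 678 mouse hairpins with both arms in the RefSeq table, 10 (1.47%) shared 8 or more bases between the arms in the same orientation, and the median was 4. This feature was looked for after the sequences had been seen.

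Replicate 2 held 3908953 counts on microRNA genes and replicate 1 held 4117752, out of 10452225 and 10631040 reads. At this depth 1 count was 0.256 CPM in replicate 2 and 0.243 CPM in replicate 1. The neural label was checked against 10 measured neural microRNA genes, of which 8 were detected, with 2.35% of the gene counts in replicate 2 and 2.72% in replicate 1. Most of that sum was on Mir92b, at 13430 ± 660 CPM, and Mir137, at 7852 ± 1559 CPM. Some neural genes share 20 or more exact bases with another annotated microRNA. Of these, Mir124a-1 had 6 and 8 counts and Mir124a-3 3 and 3, both short of detection, and Mir9-2 had 18 and 20. Mir128-1 and Mir128-2, which also share such a stretch, were well detected, with 2435 and 3578 counts and with 1845 and 2794. Detected here means 10 counts or more in each library. Lists of other cell types held 1.88% and 1.60% (endothelial, Mir126a), 0.691% and 0.630% (mural and mesenchymal), 0.160% and 0.168% (epithelial), 0.0335% and 0.0409% (blood and microglia), 0.0285% and 0.0436% (posterior), 0.00412% and 0.00520% (striated muscle) and 0.00527% and 0.00593% (liver) in those libraries. Of the 6 striated muscle genes 3 were detected, led by Mir208b at 35.8 ± 2.91 CPM. The other 3, Mir1a-1, Mir133a-1 and Mir133b, were at 0. Each of them shares 20 or more exact bases with another annotated microRNA. What part other cell types had in the members' levels was not tested. In bulk tissue fewer cells that express a gene and less RNA per cell cannot be told apart.

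All 9 measured members were detected, against 19.1% of the genes in the tables. The tables take in 1253 genes at 0 in both libraries, and the members were chosen with earlier results of these data known. Together they held 52594 counts in replicate 2 and 67475 in replicate 1, or 1.35% of the gene counts (1.33 to 1.36, 95% Wilson) and 1.64% (1.63 to 1.65). The mean share was 1.49% ± 0.207 (SD, n = 2 libraries). PCR copies are not independent molecules, so the intervals take in counting error and no more. Their median level was 1265 CPM, and the median over all 377 detected genes was 137 CPM. By mean level the members stood between the 40.6th and the 90.5th percentile of the detected genes. None of the 9 members shares 20 or more exact bases with another annotated microRNA, but 929 of the 1973 genes do. Multi-mapped reads, 43.9% of replicate 2 and 40.6% of replicate 1, are not among the gene counts. Counts of genes with such a stretch may therefore be too low. The members' share, ranks and percentiles against all genes may then be too high, by an amount that was not measured.

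**Figure D1:**
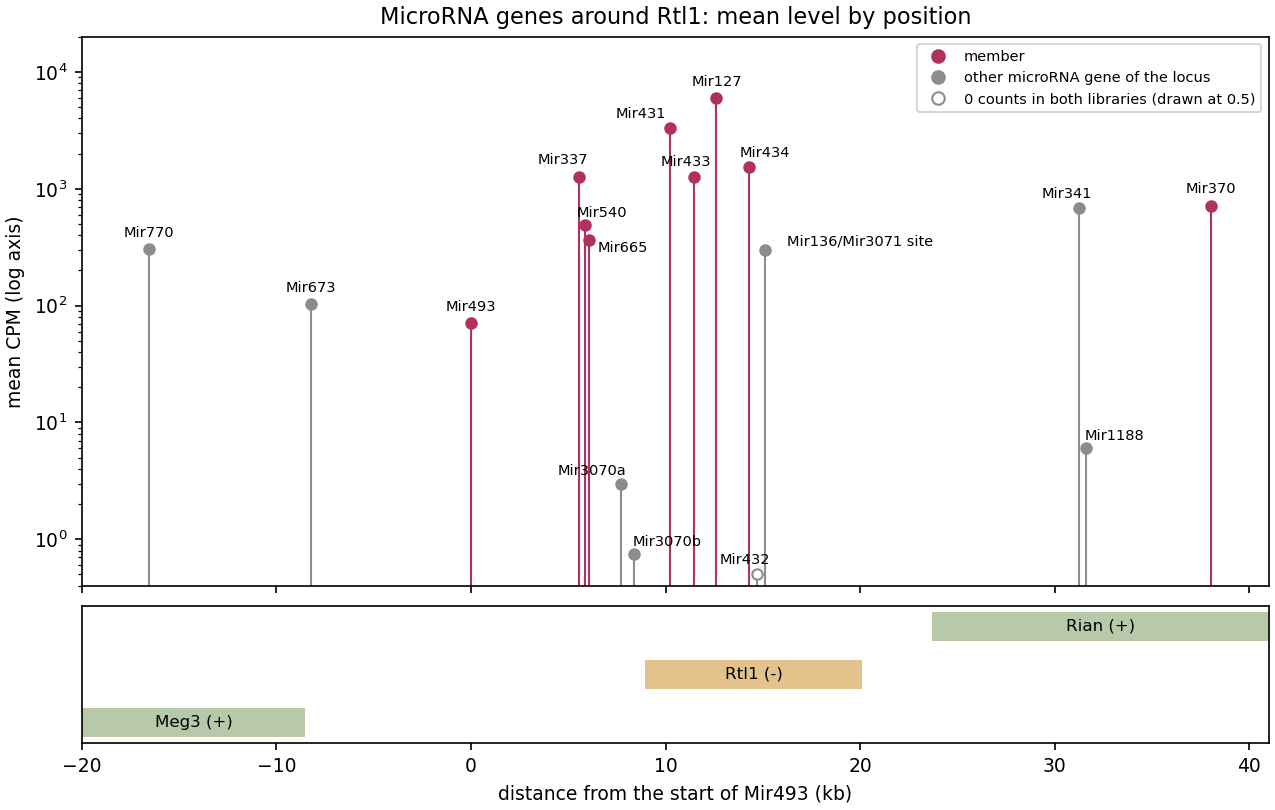
Mean CPM of the members and of listed non-members (log axis) against distance in kb from the start of Mir493, with members in red, non-members in grey, and Meg3, Rtl1 and Rian drawn to scale below with their strands. The 4 members opposite Rtl1 stand between 1269 and 5942 CPM, and Mir432, a non-member next to them, is at 0 in both libraries.

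The 4 measured members antisense to Rtl1 made up most of the reads of the group. They held 80.9% of the members' counts in replicate 2 and 80.2% in replicate 1 (80.6% ± 0.462). The 4 members between Meg3 and Rtl1 held 14.6% and 14.7%, and Mir370 held 4.52% and 5.03%. The order of the 3 subsets was the same in both libraries.

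Mir127, which represses Rtl1 in the mouse placenta, was the most abundant member (ENSMUSG00000070076). It had 22298 counts in replicate 2 and 25445 in replicate 1, which was 5704 and 6179 CPM (5942 ± 336). It ranked 36th and 37th of all genes in those libraries. Mir127 alone made up 42.4% of the members' reads in replicate 2 (42.0 to 42.8, 95% Wilson) and 37.7% in replicate 1 (37.3 to 38.1), or 40.1% ± 3.31.

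Mir431, which in mouse sensory neurons promotes axon regrowth, came next (ENSMUSG00000070080). It had 10598 counts in replicate 2 and 15867 in replicate 1, or 2711 and 3853 CPM (3282 ± 808). Mir431 had the widest spread in CPM of all members. It lay below Mir127 in both libraries, by 2.10-fold in replicate 2 and 1.60-fold in replicate 1, and their ranges did not overlap.

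Mir434 (ENSMUSG00000070133) had 5206 counts in replicate 2 and 7065 in replicate 1, or 1332 and 1716 CPM (1524 ± 271). Mir433 (ENSMUSG00000070072), whose human counterpart is known to target FGF20, had 4444 and 5766 counts, or 1137 and 1400 CPM (1269 ± 186). Mir434 was higher than Mir433 in each library, by 1.17-fold and 1.23-fold. Their ranges overlapped and their means differed by less than the SD of Mir434. The 4 measured members antisense to Rtl1 thus spanned 4.72 ± 0.428-fold (n = 2), from Mir127 to Mir433, which lie 1.13 kb apart.

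Not every hairpin opposite Rtl1 had counts. Mir432 (109594956 to 109595030), which is not a member and lies between Mir434 and Mir136, had 0 counts on either strand in both libraries. At these depths 0 counts allow a level of up to 0.767 CPM in replicate 2 and 0.729 CPM in replicate 1, the value of 3 counts. Its RefSeq hairpin had a predicted minimum free energy of -23.7 kcal/mol (RNAfold), against -49.4 kcal/mol (Mir337) to -28.2 kcal/mol (Mir136) for the hairpins of the 10 named members. What part this has in the lack of reads was not tested.

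No value can be given for Mir136, another microRNA known to act on Rtl1 in the mouse. The GENCODE M21 identifier of Mir136 is not among those in the tables, which were made with GENCODE M4. At the same place the tables hold ENSMUSG00000070129, which M21 calls Mir3071 and puts on the minus strand (109595318 to 109595397), overlapping Mir136. This identifier had 1148 own-strand counts in replicate 2 and 1257 in replicate 1, or 294 and 305 CPM (299 ± 8.19), and 5 and 0 counts on the other strand. Its version number differs between the releases, and no source used here gives its strand in M4. These reads may therefore be those of Mir136 or of Mir3071, and they were left out of the group's sums.

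The members between Meg3 and Rtl1 were lower than Mir127 and Mir431. Mir337 (ENSMUSG00000065526) had 4567 counts in replicate 2 and 5609 in replicate 1, or 1168 and 1362 CPM (1265 ± 137). It could not be told from Mir433: the gap between their means was 3.33 CPM and their order differed between the libraries. Mir540 (ENSMUSG00000072900) had 1702 and 2222 counts, or 435 and 540 CPM (488 ± 73.7). Mir665 (ENSMUSG00000076313) had 1175 and 1766 counts, or 301 and 429 CPM (365 ± 90.7).

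The starts of Mir337 and Mir540 are 0.291 kb apart, and those of Mir540 and Mir665 0.234 kb. Mir337 was 2.68-fold above Mir540 in replicate 2 and 2.52-fold in replicate 1 (2.60 ± 0.112). Mir540 was 1.45-fold and 1.26-fold above Mir665. The order Mir337, Mir540, Mir665 was the same in both libraries, with no overlap of ranges between neighbours.

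Mir493 (ENSMUSG00000077025) was the least abundant member. It had 228 counts in replicate 2 and 343 in replicate 1, or 58.3 and 83.3 CPM (70.8 ± 17.7). Mir665, its nearest neighbour in level, was 5.15-fold higher in each library. From Mir127 to Mir493 the members spanned 83.9-fold in mean CPM.

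Mir370 (ENSMUSG00000065433), which in human liver cells targets the fatty acid oxidation gene CPT1A, was the only member within Rian. It had 2376 counts in replicate 2 and 3392 in replicate 1, or 608 and 824 CPM (716 ± 153). Mir341, a non-member in the same host gene 6.76 kb away, had 2386 and 3104 counts, or 610 and 754 CPM (682 ± 101). Mir370 was 0.996-fold and 1.09-fold of Mir341, so their order differed between the libraries.

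**Figure D2:**
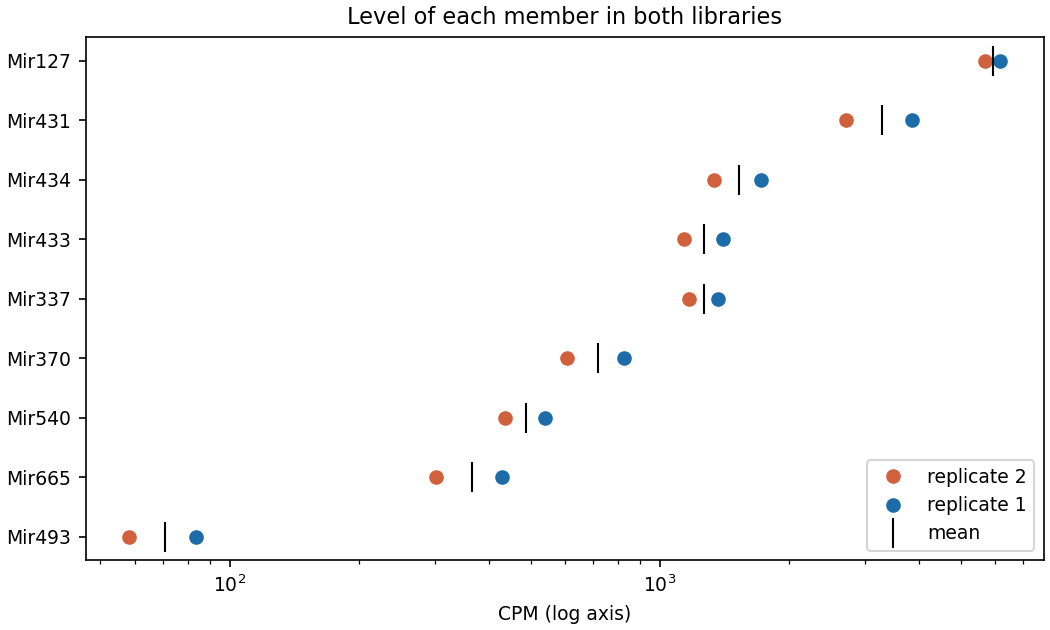
CPM of the 9 measured members (log axis) in replicate 2 and replicate 1, ordered by mean, with the mean as a tick. Replicate 2 lies below replicate 1 for all 9, and the members run from Mir127 at 5942 CPM to Mir493 at 70.8 CPM.

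Along the ordered list, neighbours overlapped in range for 2 of the 8 pairs, Mir434 with Mir433 and Mir433 with Mir337. The ranges of the other 6 pairs did not overlap. Mir434 was still above Mir433 in each library, and of the 8 pairs only Mir433 and Mir337 changed order. The levels are those of reads counted. Capture can differ between microRNAs in a way that is the same in every library, which the SD would miss and which was not measured.

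The 10 listed non-member microRNA genes between the start of Meg3 and Mir379 all had mean levels under the members' median. In Meg3, Mir770 had 254 CPM in replicate 2 and 354 CPM in replicate 1 (304 ± 70.9). Mir673, just beyond Meg3, had 88.3 and 117 CPM. Mir1188 in Rian had 16 and 33 counts, Mir3070a 12 and 12, and Mir3070b 3 and 3. Mir882 had 0 counts in both libraries, and so had Mir1906-1, which shares 20 or more exact bases with another annotated microRNA, as do Mir3070a and Mir3070b. Together the 10 listed non-members of the locus, the identifier at the Mir136 site among them, held 0.125% of the gene counts in replicate 2 and 0.154% in replicate 1. Of these, 6 were detected. Gm23912 (109618114 to 109618200), beside Mir370 and not on that list, had 0 counts in both libraries.

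The distal cluster from Mir379 to Mir3072 is the nearest comparable set. The 9 proximal members had a median of 1265 CPM, against 272 CPM for the 31 detected of 34 measured distal genes. In summed counts, over sets of unlike size, the order was the other way. The 9 proximal members held 1.49% ± 0.207 of the gene counts and the 34 distal genes 5.18% ± 0.777. The sets were also drawn up differently. The proximal set leaves out the 10 listed non-members of the locus, of which 6 were detected, with a median of 201 CPM. The detected genes of the distal list go down to 3.63 CPM. Mir299a, Mir380, Mir376a, Mir376b and Mir409 of the distal cluster matched no identifier by name. Mir299b had 9 own-strand counts in replicate 2 and 6 in replicate 1, and 3434 and 4412 on the opposite strand. The distal sum may therefore be too low, which the SD does not take in. The ratio of proximal to distal counts was 0.291 in replicate 2 and 0.286 in replicate 1 (0.288 ± 0.00325), so it was close between libraries although both sums differed by more. With 2 libraries of 1 group the difference between the sets was not tested.

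The ratio depends on a few genes and on how they were counted. Without the leading distal gene, Mir487b (16517 ± 3870 CPM), it was 0.422, and without Mir127 it was 0.173. Sharing of 20 or more exact bases was counted only with annotated microRNA transcripts that do not overlap the gene. None of the 9 proximal members shared such a stretch, against 4 of the 34 distal genes. Mir487b and Mir411 are among these 4, so their counts are less certain. With the 4 genes left out the ratio was 0.504. Other leading distal genes were Mir369 at 7177 ± 446 CPM, Mir411 at 5271 ± 196 CPM and Mir382 at 4938 ± 784 CPM. Mir127 stood between Mir369 and Mir411.

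**Figure D3:**
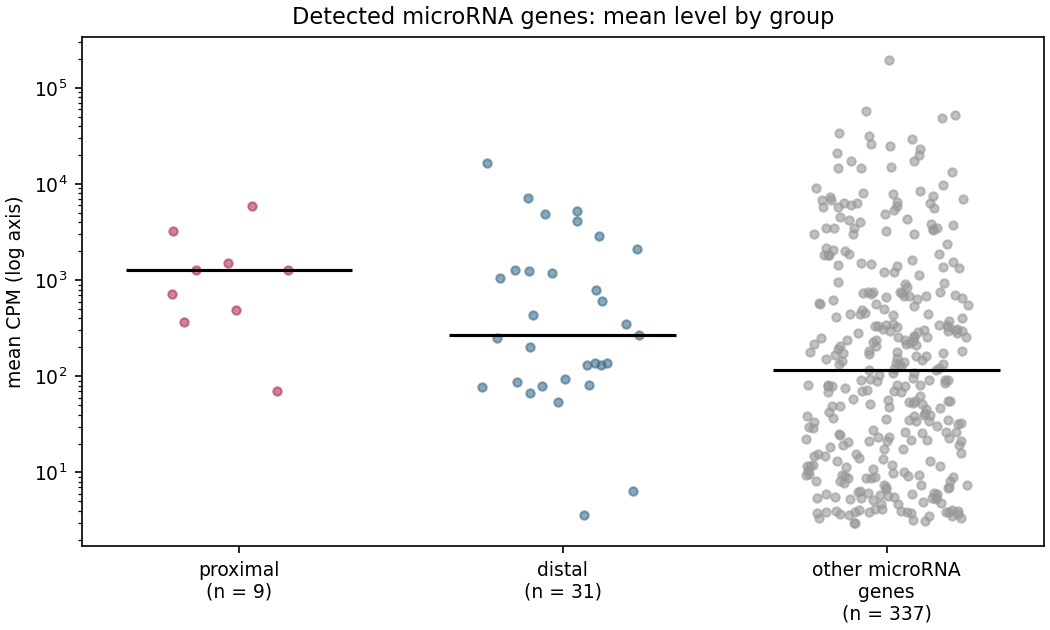
Mean CPM (log axis) of each detected microRNA gene among the proximal members (n = 9), the distal cluster (n = 31) and the other microRNA genes (n = 337), with the median of each as a line. The medians are 1265, 272 and 117 CPM, and the highest distal and other genes lie above all proximal members. The detected non-members of the proximal locus are drawn among the other genes.

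The median GC content of the proximal hairpins was 54.4% over the 10 names, from 40.3% in Mir136 to 61.2% in Mir540, against 43.4% over 37 distal hairpins and 51.7% over all 1005 in the RefSeq table. For mature sequences the medians were 54.8%, 47.6% and 52.2%. These are properties of the reference sequence, given without a test, and their part in the read counts was not tested.

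The genes most like Mir127 in level, by Euclidean distance of log2(CPM + 1) over the 2 libraries, were Mir30d, Mir23b and Mir296. Mir30d stood at 5688 ± 430 CPM, Mir23b at 5945 ± 733 CPM and Mir296 at 5748 ± 619 CPM, at distances of 0.09, 0.10 and 0.10. They lie on chromosomes 15, 13 and 2, and the likeness is one of level in these 2 libraries. Mir23b shares 20 or more bases with another annotated microRNA, so its count is less certain.

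All 9 members had a lower CPM in replicate 2 than in replicate 1, and relative to its level Mir127 differed least. After TMM normalization the log2 ratio of replicate 2 over replicate 1 had a median of -0.26 over the members, against 0.03 over all 377 detected genes. By an exact binomial test of the counts, two-sided and with Benjamini-Hochberg adjustment over 475 genes, 8 of the 9 members were lower in replicate 2 at an adjusted p under 0.05, and none was higher. Of all genes tested, 38.9% passed in either direction, and 20.8% passed as lower. Among the 227 genes with 228 counts or more in each library, the lowest count of any member in either one, 33.5% passed as lower and 66.1% in either direction. With an absolute log2 ratio over 1 required as well, 0 of the 9 members and 3.37% of all genes passed. This test compares 2 libraries of 1 group and covers counting error only.

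Mir431 fell furthest among the abundant members in replicate 2, with a log2 ratio of -0.40 (95% exact interval -0.43 to -0.36, exact binomial adjusted p = 1.02e-107). Mir665 and Mir493 had ratios of -0.40 as well, with wider intervals of -0.51 to -0.30 and -0.65 to -0.16. Mir370 stood at -0.33, Mir434 at -0.26, Mir540 at -0.20, Mir433 at -0.19 and Mir337 at -0.11. Mir127 did not pass, at -0.01 (-0.03 to 0.02, exact binomial adjusted p = 0.766). With other scalings it did pass, at -0.05 with DESeq2 size factors (exact binomial adjusted p = 0.000254) and -0.12 with library totals (exact binomial adjusted p = 1.87e-17). With TMM its interval did not overlap that of any other member.

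An edgeR exact test with the dispersion of these libraries (biological coefficient of variation 14.3%) called none of the 9 members, and 0 had an unadjusted p under 0.05. Over all 475 genes it called 1 (0.211%), and 31 had an unadjusted p under 0.05. The dispersion itself came from the difference between these same libraries. Of the distal genes, 16 were lower and 1 higher of 32 tested by the binomial test, with a median log2 ratio of -0.18 over the detected ones. Whether the proximal and distal shifts differ was not tested.

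**Figure D4:**
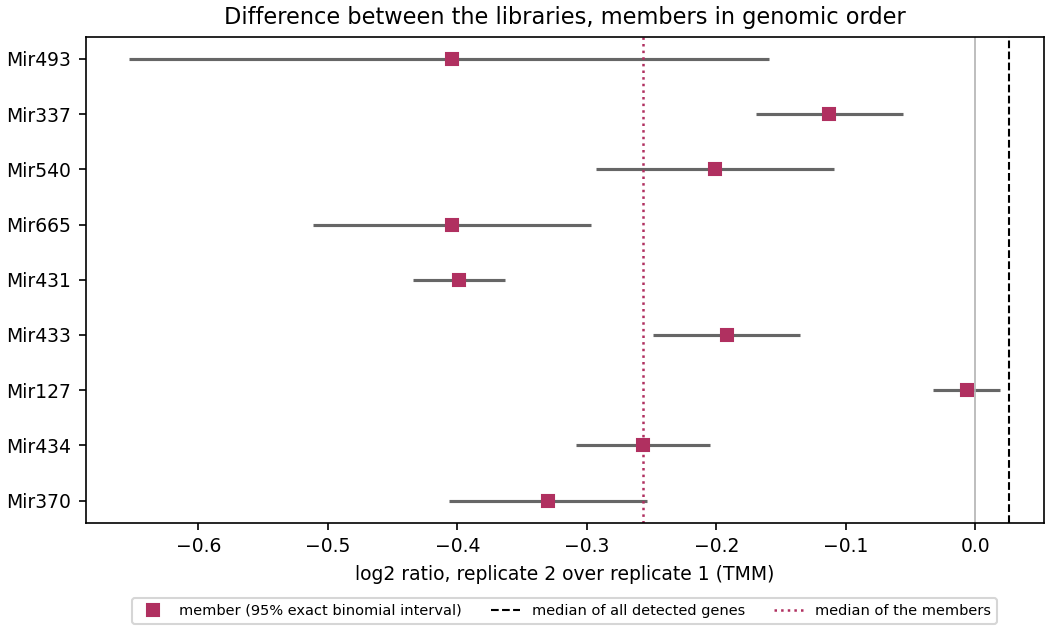
Log2 ratio of replicate 2 over replicate 1 after TMM normalization for the 9 members in genomic order, with 95% exact binomial intervals, the median of the members (dotted, -0.26) and that of all detected genes (dashed, 0.03). Mir127 sits at -0.01 and the other 8 between -0.11 and -0.40.

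Since scaling moves all members by the same amount, the ratios between members are free of it. Mir127 over Mir433 was 5.02 in replicate 2 and 4.41 in replicate 1, and Mir127 over Mir434 was 4.28 and 3.60. The coefficient of variation of CPM between the libraries ran from 5.65% for Mir127 to 24.9% for Mir493. Across the 9 members, which share their libraries, the CPM of the libraries had a Spearman correlation of 0.983.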

How the data were processed

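Counts of reads per microRNA gene were deposited by the authors as whole numbers, 1 table per library, on genome build mm10 with GENCODE M4, per the read-me texts deposited with them. Aligner and counter: not given in the sources used here. The tables have columns for counts on either strand, on the gene's strand (used here) and on the opposite strand. Library sizes exclude the summary rows: unmapped, multi-mapped and unassigned reads were 15.0%, 43.9% and 3.71% of replicate 2 and 16.7%, 40.6% and 3.99% of replicate 1.

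Symbols and positions came from GENCODE M21 on the same build, which matched 1894 of 1973 identifiers. The identifiers of Mir337, Mir540 and Mir127 have an older version in the tables, so the extent counted may differ. CPM, Wilson and exact intervals (95%) were computed with Python 3.11.15 and scipy 1.17.1. TMM came from edgeR 4.0.16 (R 4.3.3), size factors from DESeq2 1.42.0, and folding energies from ViennaRNA 2.7.2. Log2 ratios used a prior count of 0.5. The binomial test ran on genes whose counts summed to 10 or more and was tested on simulated data. Sequences came from RefSeq tables (GRCm38.p6), and all 10 names matched.

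Named genes were the members, the listed genes of the locus with at least 1 count, up to 4 leading distal genes and the 3 genes nearest Mir127 in level. Mir432, Mir882, Mir1906-1, Gm23912, Mir1193 and the marker genes fall outside that rule and were named after their values were seen. Members and lists were chosen with earlier results of these data known. With 1 group, no comparison between conditions was possible. Alternatives were other scalings, count minimums, strands, denominators, genes with copies left out and single libraries.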

Additional observations from a re-analysis of the deposited data

Results flagged for a closer look

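Reads on the strand opposite to Mir337 numbered 21 in replicate 2 and 36 in replicate 1, above the limit of 3 that a count of 0 allows. They were 0.458% (95% Wilson interval 0.300 to 0.699) and 0.638% (0.461 to 0.882) of the reads on either strand. These reads are outside the main measurement. None of the other 8 measured members had an opposite-strand read in either library. In GENCODE M21 and RefSeq the gene Mir3544 lies there on the minus strand (109585813 to 109585873), and no identifier of the tables matched it. Which gene gave the reads was not tested.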

How the results depend on the processing

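Relative to all reads of the tables, multi-mapped and unmapped ones included, the members' share was 0.569%, by construction of the larger denominator. With either-strand counts, without genes that have copies, or with the Mir136 site added, it stayed within the replicate SD. The ratio of proximal to distal counts moved to 0.283 with either-strand counts and to 0.504 without genes that have copies, Mir487b among them. With opposite-strand reads at 4 distal identifiers added it was 0.237, without Mir487b 0.422, and without Mir127 0.173. The last 3 settings and the Mir136 site were chosen after seeing the data. From single libraries the share ran from 1.35% to 1.64%, that ratio from 0.286 to 0.291, the share of Mir127 from 37.7% to 42.4% and the fold range from 74.2 to 97.8, and 9 members were detected in each.

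Of the 8 members that differed between the libraries, 0 were called by the edgeR exact test and 0 with an absolute log2 ratio over 1 as well. With DESeq2 size factors or library totals 9 were called, Mir127 among them at -0.05 and -0.12, and all 9 were lower under each scaling. Library totals moved the median of all detected genes by -0.11, and the split of all calls was then 54 higher and 141 lower, against 86 and 99 with TMM. The members' median was -0.30 with DESeq2 size factors and -0.37 with library totals. No paired analysis was possible because there is only 1 group. Depth bounds Mir432 and Mir882, at 0 counts, at 0.767 CPM in replicate 2.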
